A study of Rattus norvegicus with 6 samples.

Results

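The genes described here are 37 genes of the unfolded protein response and of the transcription factor ATF4, taken by symbol from a table of 32545 genes and grouped by role. They were 10 sensors and transcription factors, 5 stress effectors of ATF4 and of its partner CHOP, 6 amino acid and one-carbon genes of ATF4, 14 chaperones and folding enzymes of the endoplasmic reticulum (ER), and 2 genes of ER-associated degradation. Expression had been measured by RNA sequencing of bulk mammary tumors of female Sprague-Dawley rats, 3 tumors per group. All rats had received N-methyl-N-nitrosourea (MNU), an alkylating carcinogen that induces mammary tumors, at 50 mg/kg by intraperitoneal injection at an age of 21 days. The DATS group was then given diallyl trisulfide, an organosulfur compound of garlic, at 50 mg/kg by mouth in corn oil, and the vehicle group 100 µL of corn oil by gavage. Treatment began 1 week after MNU and was given 5 times a week for 10 weeks. Whether a group's 3 tumors were from different rats is not stated in the labels, and p-values therefore measure only the spread between these tumors, which may be in part technical.

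Proteins that enter the ER are folded there by chaperones, lectins and disulfide isomerases. When unfolded protein accumulates, 3 sensors in the ER membrane respond: ATF6 is cut to release a transcription factor, IRE1 (gene Ern1) splices the Xbp1 messenger, and PERK (gene Eif2ak3) phosphorylates the translation factor eIF2. ATF6 and spliced XBP1 raise chaperone and degradation genes, while eIF2 phosphorylation slows general translation and favors translation of ATF4, which raises amino acid genes and, with CHOP (gene Ddit3), genes of damage and feedback. Secretory epithelium such as that of the mammary gland carries a high load of ER folding. Splicing of Xbp1, phosphorylation and protein levels are not measured by gene-level RNA values, so the branches appear here only through transcript abundance.

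No member differed between DATS and vehicle tumors past the threshold of the test, which was an adjusted p under 0.05 in limma with Benjamini-Hochberg adjustment over 13631 genes. The share of all genes called by that rule was 0%, and the lowest adjusted p was 0.819 for the members and for all genes alike. Of the 37 members, 19 had a higher and 18 a lower mean log2 value in DATS tumors, a share of 51.4% higher, against 49.2% of all genes tested. Their median log2 difference (DATS minus vehicle; every log2 difference here is one of log2(FPKM + 1) values) was 0.02, beside -0.0048 over all genes. Only 1 member, Ppp1r15a, had an unadjusted p under 0.05, or 2.70% of the members against 5.85% of all genes. The groups did not overlap for 3 members, Ppp1r15a above and Canx and Herpud1 below, or 8.11% against 12.2% of all genes. The 37 genes as a set thus lay near the background of the table in each of these counts. The intervals were wide: the 95% confidence interval of a member reached a median of 0.55 to either side of its log2 difference. Differences of that size could thus be missed before any adjustment. The adjusted threshold could miss larger ones, as 0 genes were called although log2 differences over all genes reached 4.03.

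**Figure D1:**
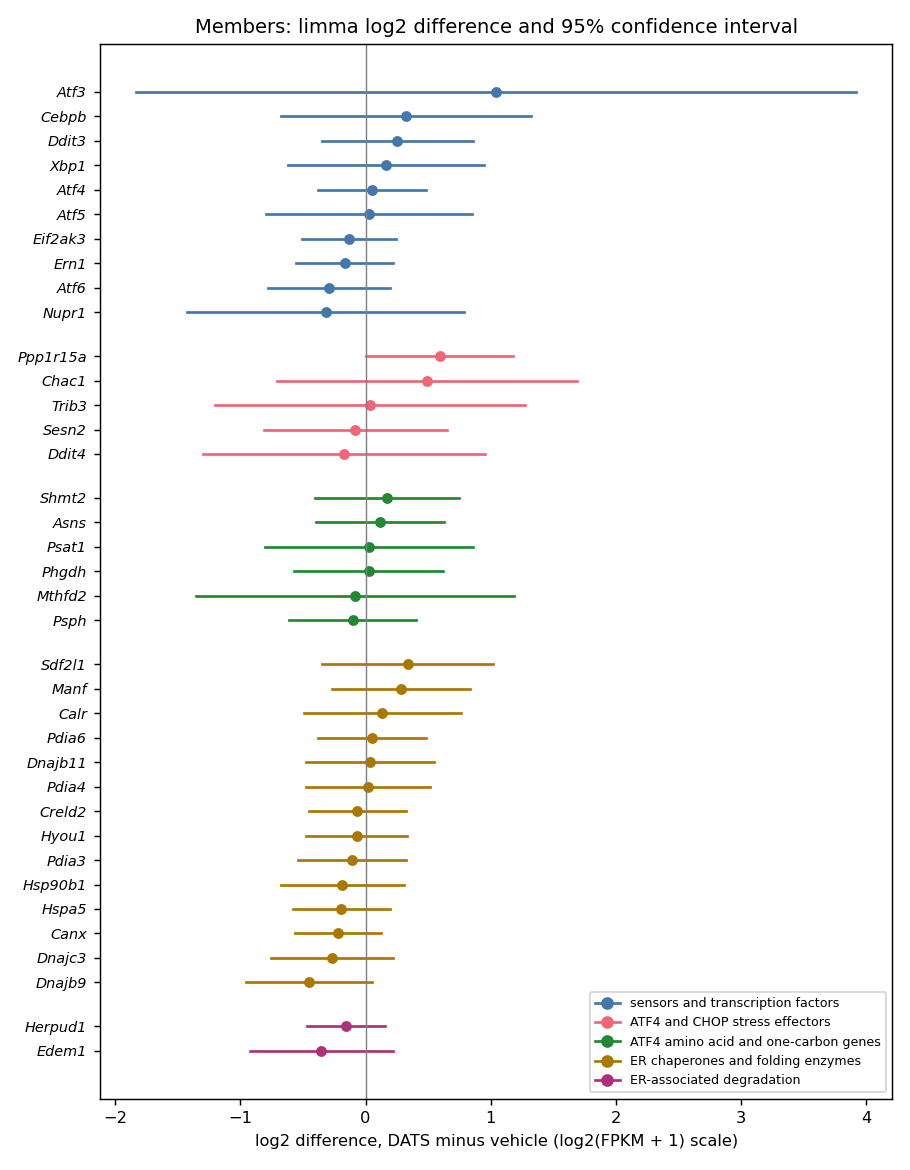
Log2 difference of each member (DATS minus vehicle in log2(FPKM + 1), x axis) with its 95% confidence interval from limma, colored by role and ordered within each role. All intervals but that of Ppp1r15a include 0, and that of Atf3 is the widest.

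The depth recovered from the values was 13691168 to 14708337 reads in DATS tumors and 13531587 to 16868117 reads in vehicle tumors. Values are FPKM (fragments per kilobase of gene, scaled for depth), and tumors are given in the order 1, 2 and 3 throughout. The FPKM totals were 710096, 696676 and 662528 in DATS tumors, against 608193, 656017 and 566304 in vehicle tumors, and so were higher in every DATS tumor. The 10 luminal epithelial markers summed to 2718 to 4400 FPKM in DATS tumors and 2036 to 2649 FPKM in vehicle tumors. The sums did not overlap, by a narrow margin. They were not scaled to the FPKM totals, so this margin cannot be told apart from the higher totals of the DATS tumors. Of single genes tested, 6.72% were higher in every DATS tumor, a share that does not apply to sums. Of the 10 genes, 9 were higher in DATS tumors, and 3 (Cldn3, Cldn4 and Cldn7) had an unadjusted p under 0.05. All 8 myoepithelial and basal markers were higher as well, with a median log2 difference of 0.76, beside 0.46 for the luminal markers. Their sums overlapped, at 1281 to 2904 FPKM in DATS tumors and 1108 to 2271 FPKM in vehicle tumors. Esr1, the estrogen receptor, was the 1 lower luminal gene, with 3.23, 4.67 and 4.35 FPKM in DATS tumors and 10.7, 4.57 and 7.37 FPKM in vehicle tumors. The part of the luminal and basal levels in the members' values was not tested. Several tumors stood apart in other tissue markers. The summed FPKM of 6 skeletal muscle markers was 21.7 to 26.7 in DATS tumors, and in vehicle tumors it was 1304 in tumor 1 and 18.9 to 42.7 in the others. Milk protein genes summed to 4981, 914 and 9.09 FPKM in DATS tumors and to 1503, 34.1 and 80.3 FPKM in vehicle tumors. Plasma and B cell markers summed to 36.2 to 47.9 FPKM in DATS tumors, and in vehicle tumors to 104 in tumor 2 and 38.1 to 39.5 in the others. Vehicle tumor 2 was also highest for T and NK cell, macrophage, fibroblast and hypoxia markers. Their sums were 732, 2016, 1713 and 525 FPKM there, against at most 355, 1238, 1566 and 302 FPKM in any other tumor. The part of these levels in Nupr1 and Mthfd2, which peaked in that tumor, was not tested. In bulk tissue, fewer cells of a type and less RNA per cell cannot be told apart.

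The promoters of the members held known response elements of the pathway, most of them in the chaperone genes. RefSeq windows (assembly GRCr8, 250 bases before to 50 bases after the annotated transcription start) were found for 31 of the 37 members; those of Ern1, Atf6, Atf3, Pdia3, Pdia6 and Manf were not among them. The ER stress response element (ERSE, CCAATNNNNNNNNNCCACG), known to bind ATF6 and XBP1 with the CCAAT-binding factor NF-Y, was present on either strand in 7 of 31 windows, against 0.066% of 33469 RefSeq promoter windows of the same length. Its second form (ERSE-II, ATTGG, any 1 base, then CCACG) was in 3 of 31, against 0.051%. The CEBP-ATF response element through which ATF4 acts (CARE, TGATGNAA) was in 4 of 31, against 3.98%, and the unfolded protein response element of XBP1 (UPRE, TGACGTGG) in 1 of 31, against 0.595%. Of 11 chaperone windows, 6 held ERSE and 2 held ERSE-II. Of 6 windows of amino acid genes, 0 held any of the motifs. Among 21851 protein-coding windows the shares were 0.087% for ERSE, 0.059% for ERSE-II, 3.345% for CARE and 0.604% for UPRE. Genes and motifs were both chosen as known parts of this pathway, so these shares are not a test. A match describes letters only and is neither a binding site nor a cause, and no match says only that these letters are absent from this window.

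Examples of the ERSE matches are printed to show how the arms are kept while the bases between them vary. Each is written 5′ to 3′ in the direction of the motif with 10 bases to either side, capitals mark the motif, and positions are GRCr8 with the strand printed.
Hspa5, chr3:38452963-38453001, plus strand: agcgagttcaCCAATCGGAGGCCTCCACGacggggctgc
Hsp90b1 distal, chr7:23012441-23012479, minus strand: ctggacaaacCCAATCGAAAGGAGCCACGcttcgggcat
Hsp90b1 proximal, chr7:23012337-23012375, plus strand: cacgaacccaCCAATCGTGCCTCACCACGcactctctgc
Calr, chr19:40213125-40213163, minus strand: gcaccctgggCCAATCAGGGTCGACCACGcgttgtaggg
Dnajc3, chr15:102432524-102432562, plus strand: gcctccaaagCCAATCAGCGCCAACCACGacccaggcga
Creld2, chr7:121789229-121789267, minus strand: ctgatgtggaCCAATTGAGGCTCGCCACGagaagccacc
Xbp1, chr14:84604548-84604586, plus strand: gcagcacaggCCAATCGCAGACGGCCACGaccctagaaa

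The ERSE-II and CARE matches are printed in the same way because they are the other matches found among the members; CARE was in 2 of 5 effectors, 0 of 6 amino acid genes and 1 of 2 degradation genes. Hyou1 held ERSE-II in 2 places, and the more distal of them overlapped its UPRE match on the other strand.
Hyou1 distal ERSE-II, chr8:53602684-53602714, minus strand: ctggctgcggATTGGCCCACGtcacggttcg
Hyou1 proximal ERSE-II, chr8:53602784-53602814, minus strand: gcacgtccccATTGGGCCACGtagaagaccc
Hyou1 UPRE, chr8:53602681-53602708, plus strand: ccgcgaaccgTGACGTGGgccaatccgc
Dnajb11 ERSE-II, chr11:91672790-91672820, minus strand: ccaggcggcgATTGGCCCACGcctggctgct
Herpud1 ERSE-II, chr19:10614811-10614841, minus strand: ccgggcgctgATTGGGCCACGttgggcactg
Herpud1 CARE, chr19:10614874-10614901, plus strand: gggtgcgggcTGATGCAAcccgccgtgg
Chac1 CARE, chr3:126795954-126795981, minus strand: ctagcaggagTGATGCAAcggcggagaa
Trib3 CARE, chr3:161275537-161275564, plus strand: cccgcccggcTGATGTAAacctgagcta
Nupr1 CARE, chr1:190645939-190645966, plus strand: aagccctgtcTGATGCAAtctggccttt

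The 250 bases before the start of Hspa5 and of Herpud1 are given whole, because Hspa5 is the standard readout of the chaperone branch and Herpud1 was the 1 member with both an ERSE form and a CARE. Capitals mark the motifs named above, in the direction of the gene. In Herpud1 the CARE lies on the strand opposite to the gene and therefore reads as its complement.
Hspa5, chr3:38452766-38453015, plus strand: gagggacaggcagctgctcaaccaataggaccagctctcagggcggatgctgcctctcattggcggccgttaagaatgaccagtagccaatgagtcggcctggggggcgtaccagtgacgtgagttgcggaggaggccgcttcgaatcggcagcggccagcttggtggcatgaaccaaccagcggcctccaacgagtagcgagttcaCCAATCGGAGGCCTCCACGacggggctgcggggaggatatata
Herpud1, chr19:10614708-10614957, minus strand: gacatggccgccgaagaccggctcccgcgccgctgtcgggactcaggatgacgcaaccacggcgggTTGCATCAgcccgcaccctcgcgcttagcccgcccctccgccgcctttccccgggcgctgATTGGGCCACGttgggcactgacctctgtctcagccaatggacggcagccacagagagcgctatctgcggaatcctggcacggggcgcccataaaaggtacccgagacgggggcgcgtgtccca

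**Figure D2:**
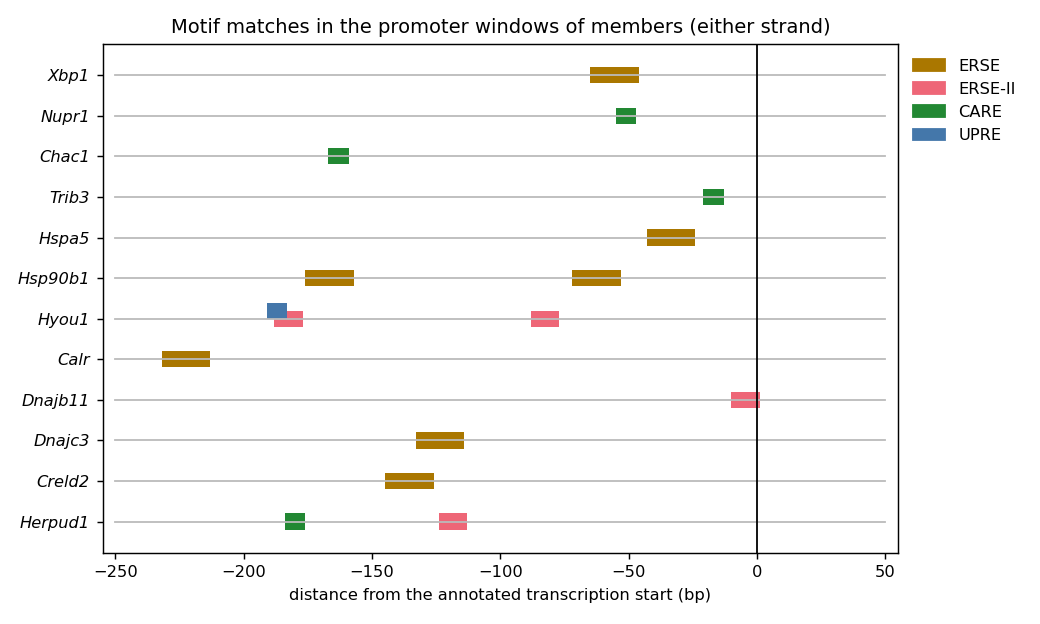
Position of motif matches on either strand in the promoter windows of 12 members with a match (x axis, distance from the annotated transcription start in bp; grey lines, the window; colored bars, matches). Of the ERSE matches drawn, those of Hspa5 and Xbp1 lie nearest the start, and that of Calr beyond 200 bp before it.

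Read beside the expression values, the 10 members with ERSE or ERSE-II had a median log2 difference of -0.11, with 3 higher and 7 lower in DATS tumors. The 21 members whose windows held neither form had a median of 0.03, with 13 higher and 8 lower. The members with an ERSE form also differed in the tumor where they peaked: 0 of 10 were highest in DATS tumor 3 and 5 of 10 in vehicle tumor 1, while of the other 21 there were 8 highest in DATS tumor 3 and 2 in vehicle tumor 1. Most members with an ERSE form were chaperones, of whose 11 windows 6 held ERSE and 2 held ERSE-II. Of all 14 chaperones, 8 were highest in vehicle tumor 1. The split by promoter thus could not be told apart from the split by role. These counts describe the groups of promoters and were not tested.

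Among the sensors, the mean level of each of the 3 was lower in DATS tumors, and none was called. Ern1 had 8.66, 8.77 and 7.26 FPKM in DATS tumors, against 8.09, 10.1 and 9.96 FPKM in vehicle tumors. Its log2 difference was -0.17 (95% confidence interval -0.55 to 0.22). The groups overlapped through vehicle tumor 1, the lowest of the vehicle tumors. Eif2ak3 had 9.28, 11.4 and 10.6 FPKM in DATS tumors, against 10.2, 11.5 and 12.9 FPKM in vehicle tumors, a log2 difference of -0.14 (-0.51 to 0.24). Atf6 had 4.93, 6.60 and 4.11 FPKM in DATS tumors, against 6.81, 7.08 and 5.75 FPKM in vehicle tumors, a log2 difference of -0.30 (-0.78 to 0.19). For Atf6 only DATS tumor 2 reached into the vehicle range. The limma adjusted p (Benjamini-Hochberg) was 0.875 for Ern1, 0.894 for Eif2ak3 and 0.851 for Atf6.

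Xbp1 and Atf4, the messengers on which 2 of the sensor branches act, were among the most abundant members, and neither separated the groups. Xbp1 had 422, 188 and 223 FPKM in DATS tumors, against 199, 223 and 282 FPKM in vehicle tumors. DATS tumor 1 was 1.49 times the next tumor, and the other 5 tumors lay between 188 and 282 FPKM. That tumor was also the one with the highest milk protein sum, whose part in the level of Xbp1 was not tested. Without DATS tumor 1 the log2 difference of Xbp1 was -0.18, in place of 0.16 with all tumors. Atf4 had 205, 282 and 209 FPKM in DATS tumors, against 227, 239 and 201 FPKM in vehicle tumors, with means of 232 ± 43.2 and 222 ± 19.6 FPKM (SD, n = 3 each). Its log2 difference of 0.05 had an interval of -0.38 to 0.48. The 6 tumors interleaved, with DATS tumor 2 highest and vehicle tumor 3 lowest.

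Of the factors downstream, Ddit3 (CHOP), which ATF4 induces, had 28.5, 28.0 and 33.3 FPKM in DATS tumors, against 16.7, 30.2 and 30.2 FPKM in vehicle tumors. Its log2 difference was 0.25 (-0.35 to 0.86). Vehicle tumor 1 was low and the other 5 tumors were close together; without vehicle tumor 1 the log2 difference was -0.018. Atf3, a stress factor that is also an immediate early gene, had 7.03, 119 and 4.52 FPKM in DATS tumors, against 2.96, 14.2 and 9.05 FPKM in vehicle tumors. DATS tumor 2 was 8.35 times the next tumor, and the other DATS tumors lay within the vehicle range. The same tumor had the highest sum of 10 immediate early genes, 922 FPKM, against 565 and 480 FPKM in the other DATS tumors and 421 to 456 FPKM in vehicle tumors. In it Fosb, an activity-induced subunit of AP-1, had 20.8 FPKM, beside 0.841 and 0.500 FPKM in the other DATS tumors and 0.637, 1.41 and 0.997 FPKM in vehicle tumors. The part of immediate early induction in the level of Atf3 was not tested. The log2 difference of Atf3 was 1.04 (-1.84 to 3.92), and without DATS tumor 2 it was -0.35.

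Cebpb, a bZIP factor that pairs with CHOP and ATF4 and also acts in mammary epithelium, had 310, 228 and 126 FPKM in DATS tumors, against 155, 115 and 253 FPKM in vehicle tumors. Each group held both high and low tumors, and the log2 difference was 0.32 (-0.67 to 1.32). Nupr1, a stress-induced chromatin protein, had 1.90, 2.43 and 3.15 FPKM in DATS tumors, against 3.01, 7.31 and 1.40 FPKM in vehicle tumors. It rested on 13 to 69 reads per tumor, and vehicle tumor 2 decided its log2 difference of -0.32, which was 0.15 without that tumor. A second table entry with the symbol Nupr1 had 0 or 1 read per tumor and was not tested. Atf5, a bZIP factor translated in the manner of ATF4, had 81.8, 114 and 160 FPKM in DATS tumors, against 84.0, 99.6 and 169 FPKM in vehicle tumors. The range within each group was about equal, and the log2 difference was 0.03. In all, 6 of the 10 sensors and factors were higher and 4 lower in DATS tumors, with a median log2 difference of 0.04.

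**Figure D3:**
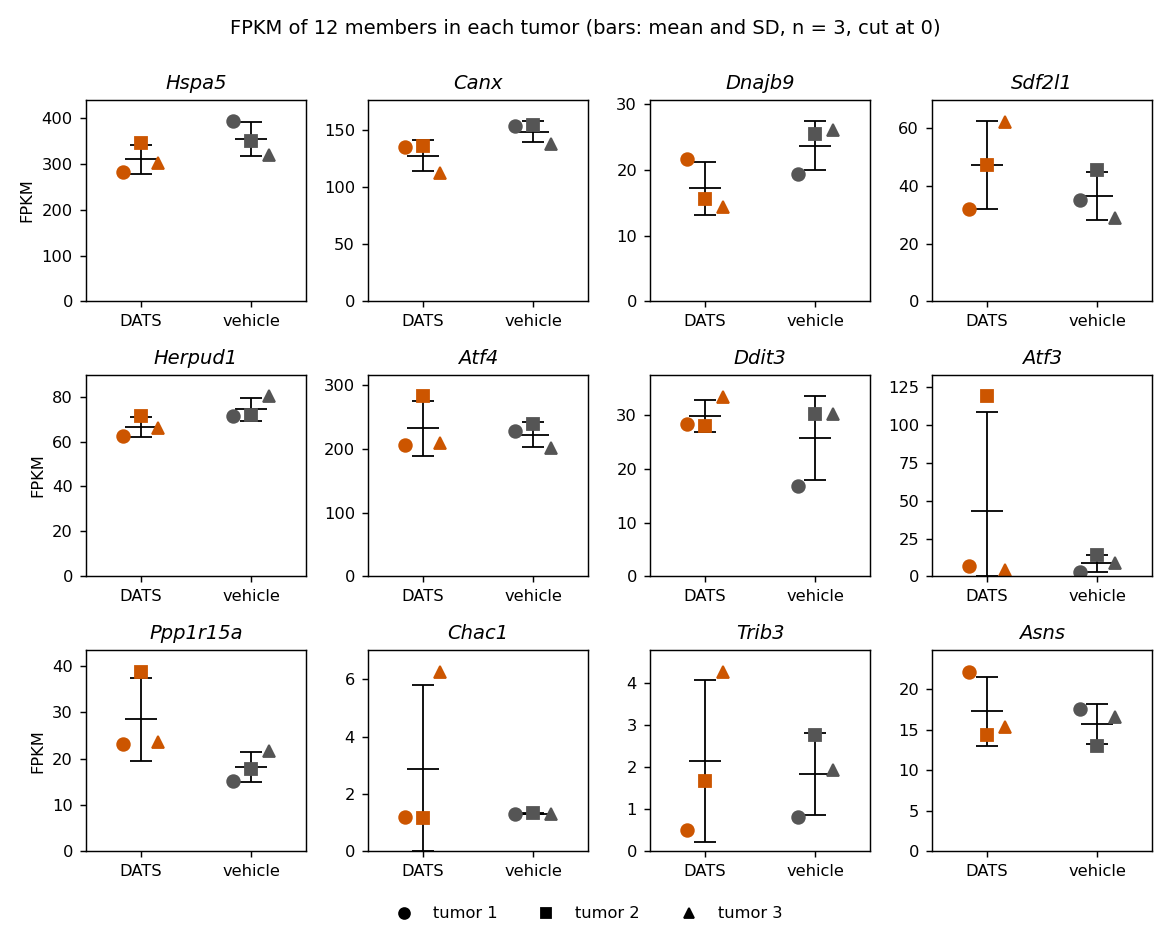
FPKM of 12 members in each tumor (y axis from 0; DATS tumors in orange, vehicle tumors in grey; marker shape, tumor number; bars, mean and SD, n = 3 each, with the lower end of the bar cut at 0). Canx and Herpud1 lie lower and Ppp1r15a higher in every DATS tumor, while the mean of Atf3 in DATS tumors rests on tumor 2 and that of Chac1 on tumor 3.

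Ppp1r15a (GADD34, identifier ENSRNOG00000020938) was the member with the lowest unadjusted p. Its product brings protein phosphatase 1 to phosphorylated eIF2 and so ends the translational arrest. It had 23.1, 38.8 and 23.5 FPKM in DATS tumors, against 15.3, 17.8 and 21.6 FPKM in vehicle tumors, from 634 to 1267 reads per tumor. All DATS tumors lay above all vehicle tumors, as was the case for 6.72% of all genes tested. The means were 28.5 ± 8.93 FPKM in DATS tumors and 18.2 ± 3.17 FPKM in vehicle tumors (SD, n = 3 each), a ratio of 1.57. The log2 difference was 0.59 ± 0.24 (SE), with an interval of 0.0037 to 1.18. In limma the unadjusted p was 0.0489 and the adjusted p (Benjamini-Hochberg) 0.819, so the gene was not called. An exact two-sided permutation test of 3 against 3 tumors gave p = 0.1, the smallest it can give. Any gene with separate groups gets this value, so it adds nothing to the separation itself. DATS tumor 2, which had the highest immediate early sum, was also the highest tumor for Ppp1r15a, and without it the log2 difference was 0.36 and the unadjusted limma p 0.133. All 10 immediate early genes had a higher mean log2 value in DATS tumors, with a median log2 difference of 0.50. The part of immediate early induction in the level of Ppp1r15a was not tested.

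The other 4 stress effectors had their extremes in single tumors. Chac1, an enzyme that degrades glutathione and is a direct target of ATF4, had 1.19, 1.18 and 6.28 FPKM in DATS tumors, against 1.30, 1.34 and 1.32 FPKM in vehicle tumors. DATS tumor 3 was 4.69 times the next tumor, and the other 5 tumors were nearly equal. Without that tumor the log2 difference was -0.088, in place of 0.49 (-0.71 to 1.69). Trib3, a pseudokinase that dampens ATF4 and CHOP, had 0.517, 1.68 and 4.27 FPKM in DATS tumors, against 0.821, 2.77 and 1.93 FPKM in vehicle tumors. It too was highest in DATS tumor 3, and it rested on 14 to 115 reads per tumor. Its log2 difference of 0.03 had an interval of -1.21 to 1.27 and was -0.43 without DATS tumor 3.

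Both inhibitors of mTORC1 among the effectors overlapped between the groups. Ddit4 (REDD1) had 22.2, 69.8 and 76.8 FPKM in DATS tumors, against 66.7, 48.6 and 53.2 FPKM in vehicle tumors. DATS tumor 1 held the lowest and DATS tumor 3 the highest value of the 6, so the spread within the DATS group exceeded the log2 difference of -0.17 (-1.30 to 0.96). Sesn2, a leucine sensor, had 6.08, 12.4 and 10.4 FPKM in DATS tumors, against 8.82, 7.99 and 13.6 FPKM in vehicle tumors, a log2 difference of -0.08. Over the 5 effectors 3 were higher and 2 lower in DATS tumors, with a median log2 difference of 0.03. Leaving out DATS tumor 3 gave a median of -0.16, and leaving out DATS tumor 1 gave 0.47.

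The ATF4 amino acid and one-carbon genes, considered apart from the chaperones, showed no member past any threshold and no member with separate groups. In DATS tumors 4 of the 6 genes were higher and 2 lower, and the median log2 difference was 0.02. Asns (asparagine synthetase), the best known ATF4 target of this kind, had 22.1, 14.3 and 15.3 FPKM in DATS tumors, against 17.6, 12.9 and 16.5 FPKM in vehicle tumors. DATS tumor 1 was highest and the other tumors interleaved, with a log2 difference of 0.12 (-0.40 to 0.63). Phgdh, Psat1 and Psph catalyze the successive steps of serine synthesis. Phgdh had 10.3, 9.20 and 13.8 FPKM in DATS tumors, against 14.4, 10.6 and 8.08 FPKM in vehicle tumors. Psat1 had 4.46, 5.90 and 10.3 FPKM in DATS tumors, against 7.49, 8.16 and 4.21 FPKM in vehicle tumors. Psph had 21.5, 27.0 and 34.1 FPKM in DATS tumors, against 30.2, 24.4 and 33.6 FPKM in vehicle tumors. In all 3 serine genes DATS tumor 3 was the highest of its group, and the log2 differences were 0.02, 0.03 and -0.10 for Phgdh, Psat1 and Psph.

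Shmt2 and Mthfd2 carry the mitochondrial one-carbon pathway that uses serine. Shmt2 had 22.2, 29.7 and 39.0 FPKM in DATS tumors, against 29.0, 28.8 and 21.3 FPKM in vehicle tumors, the largest log2 difference of these 6 genes at 0.17 (-0.40 to 0.75). Mthfd2 had 6.07, 16.3 and 19.2 FPKM in DATS tumors, against 10.8, 25.3 and 8.41 FPKM in vehicle tumors, a log2 difference of -0.08 (-1.35 to 1.19). Mthfd2 was lowest in DATS tumor 1 and highest in vehicle tumor 2, and it was the most variable of the 6 genes. The median of the amino acid genes was -0.20 without DATS tumor 3 and 0.16 without vehicle tumor 1, so its sign rested on single tumors.

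The ER chaperones and folding enzymes were 8 lower and 6 higher in DATS tumors, with a median log2 difference of -0.07 and 0 of 14 at an unadjusted p under 0.05. Hspa5 (BiP, identifier ENSRNOG00000018294), the main Hsp70 chaperone of the ER, had 283, 345 and 302 FPKM in DATS tumors, against 393, 350 and 320 FPKM in vehicle tumors. Its means were 310 ± 31.7 FPKM in DATS tumors and 354 ± 36.7 FPKM in vehicle tumors (SD, n = 3 each). Only DATS tumor 2 exceeded a vehicle tumor. The log2 difference was -0.19 (-0.58 to 0.19), with a limma adjusted p of 0.861 (Benjamini-Hochberg). Hsp90b1 (GRP94), the Hsp90 of the ER, had 227, 247 and 176 FPKM in DATS tumors, against 299, 225 and 216 FPKM in vehicle tumors, a log2 difference of -0.18 (-0.68 to 0.31). Hyou1, an exchange factor for BiP, had 30.4, 40.8 and 35.4 FPKM in DATS tumors, against 42.5, 33.1 and 36.3 FPKM in vehicle tumors. All 3 of these chaperones were highest in vehicle tumor 1.

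The lectin chaperones calnexin and calreticulin, which hold glycoproteins during folding, had log2 differences of opposite sign, neither past the threshold. Canx (calnexin, identifier ENSRNOG00000003343) had 134, 136 and 112 FPKM in DATS tumors, against 153, 154 and 138 FPKM in vehicle tumors. Every DATS tumor was below every vehicle tumor, as was the case for 5.5% of all genes tested. The gap between the highest DATS and the lowest vehicle tumor was small beside the spread within either group. The log2 difference was -0.22 ± 0.14 (SE), with an interval of -0.56 to 0.12 and a limma adjusted p of 0.851 (Benjamini-Hochberg). The exact permutation p was 0.1, the smallest possible, which separate groups of this size always give. Calr (calreticulin) had 555, 700 and 746 FPKM in DATS tumors, against 846, 514 and 503 FPKM in vehicle tumors. Vehicle tumor 1 was the highest and the other vehicle tumors the lowest of the 6. Its log2 difference was 0.14 with all tumors and 0.38 without vehicle tumor 1. Pdia3, the disulfide isomerase that works with both lectins, had 460, 432 and 481 FPKM in DATS tumors, against 599, 446 and 447 FPKM in vehicle tumors.

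The J-domain co-chaperones of BiP had log2 differences of either sign, none past the threshold. Dnajb9 had 21.7, 15.5 and 14.3 FPKM in DATS tumors, against 19.4, 25.5 and 26.1 FPKM in vehicle tumors, with means of 17.1 ± 3.98 and 23.6 ± 3.70 FPKM (SD, n = 3 each). Only DATS tumor 1 overlapped the vehicle range. At -0.45 (-0.95 to 0.05) it had the largest log2 difference of the chaperones, with an unadjusted limma p of 0.0697. Without DATS tumor 1, the highest of its group, that p was 0.0178 (adjusted p 0.481). Without vehicle tumor 1, the lowest of its group, it was 0.0405 (adjusted p 0.588). It was not under 0.05 when any other tumor was left out. In these 2 fits 1221 and 1131 of all genes had an unadjusted p under 0.05, against 797 with all tumors. Dnajc3 had 38.9, 29.8 and 29.7 FPKM in DATS tumors, against 42.5, 46.4 and 31.0 FPKM in vehicle tumors, a log2 difference of -0.27 (-0.76 to 0.22). Dnajb11 had 36.5, 54.1 and 48.9 FPKM in DATS tumors, against 50.2, 49.6 and 35.8 FPKM in vehicle tumors, a log2 difference of 0.04. Its partner Sdf2l1 had 31.9, 47.3 and 62.3 FPKM in DATS tumors, against 35.0, 45.4 and 28.9 FPKM in vehicle tumors. Sdf2l1 had the highest log2 difference of the chaperones, 0.34 (-0.34 to 1.02), and its groups overlapped through DATS tumor 1.

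Of the remaining folding genes, the disulfide isomerases Pdia4 and Pdia6 were steady in DATS tumors. Pdia4 had 126, 134 and 140 FPKM in DATS tumors, against 176, 110 and 117 FPKM in vehicle tumors. Pdia6 had 254, 261 and 266 FPKM in DATS tumors, against 305, 252 and 206 FPKM in vehicle tumors. For both genes the highest and the lowest of the 6 values were vehicle tumors, and the log2 differences were 0.02 and 0.05. Creld2, a secreted ER stress protein, had 40.0, 53.6 and 48.7 FPKM in DATS tumors, against 54.6, 49.3 and 44.6 FPKM in vehicle tumors, a log2 difference of -0.07. Manf, a secreted factor that binds BiP, had 164, 223 and 222 FPKM in DATS tumors, against 209, 166 and 129 FPKM in vehicle tumors, a log2 difference of 0.29 (-0.26 to 0.84).

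Vehicle tumor 1 was the high tumor of the chaperones. It was the highest of the 6 tumors for 8 of the 14 chaperones and above the gene's own mean for 12 of them. The summed FPKM of the 14 genes was 2404, 2718 and 2685 in DATS tumors, against 3224, 2467 and 2279 in vehicle tumors. As a share of the tumor's FPKM total it was 0.339%, 0.390% and 0.405% in DATS tumors, against 0.530%, 0.376% and 0.403% in vehicle tumors. In sums and in shares the groups overlapped with vehicle tumor 1 and without it. Leaving it out gave a median log2 difference of the chaperones of 0.03. Vehicle tumor 1 was also the tumor with skeletal muscle transcripts, and the part of those in its chaperone level was not tested. Acta1, the muscle actin, had 0.896, 0.516 and 0.200 FPKM in DATS tumors, against 677, 1.42 and 2.26 FPKM in vehicle tumors.

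Both genes of ER-associated degradation were lower in DATS tumors. Herpud1 (identifier ENSRNOG00000018796), an ER membrane protein of the ligase complex that returns misfolded proteins to the cytosol, had 62.5, 71.19 and 66.1 FPKM in DATS tumors, against 71.19, 71.6 and 80.1 FPKM in vehicle tumors. The groups did not overlap, but DATS tumor 2 and vehicle tumor 1 were equal to 4 digits. The log2 difference was -0.16 ± 0.13 (SE), with an interval of -0.46 to 0.15 and a limma adjusted p of 0.861 (Benjamini-Hochberg). The exact permutation p was 0.1, which separate groups of this size always give. Edem1, a lectin that hands mannose-trimmed glycoproteins to degradation, had 7.22, 9.78 and 12.2 FPKM in DATS tumors, against 11.7, 15.8 and 10.5 FPKM in vehicle tumors. DATS tumor 3 exceeded 2 of the vehicle tumors, and the log2 difference was -0.35 (-0.93 to 0.22).

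The roles differed in which tumor was high. Only in the mean deviation of the 2 degradation genes did all DATS tumors lie below all vehicle tumors. There the nearest were DATS tumor 3 at 0.03 and vehicle tumor 1 at 0.05, and Edem1 by itself overlapped. Of all genes tested, 5.5% were lower in every DATS tumor. In the mean deviation of a role's genes from their own 6-tumor means, the stress effectors were at -0.59, 0.23 and 0.61 in DATS tumors, against -0.23, -0.09 and 0.06 in vehicle tumors. The amino acid genes were at -0.29, -0.02 and 0.35 in DATS tumors, against 0.10, 0.12 and -0.26 in vehicle tumors. The chaperones were at -0.12, 0.05 and -0.01 in DATS tumors, against 0.21, 0.02 and -0.16 in vehicle tumors. In each of these 3 roles the groups overlapped. The sensors and factors were at -0.05, 0.36 and -0.18 in DATS tumors, against -0.32, 0.12 and 0.06 in vehicle tumors, and the degradation genes at -0.35, -0.06 and 0.03 in DATS tumors, against 0.05, 0.26 and 0.07 in vehicle tumors. In these means DATS tumor 3 was the highest tumor for both groups of ATF4 targets and DATS tumor 1 the lowest, while the chaperones peaked in vehicle tumor 1. For the amino acid genes vehicle tumor 3 was nearly as low. It was the lowest tumor for 3 of the 6 genes, against 2 for DATS tumor 1. DATS tumor 3 was the highest tumor for 3 of 5 effectors, 3 of 6 amino acid genes and 1 of 14 chaperones.

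**Figure D4:**
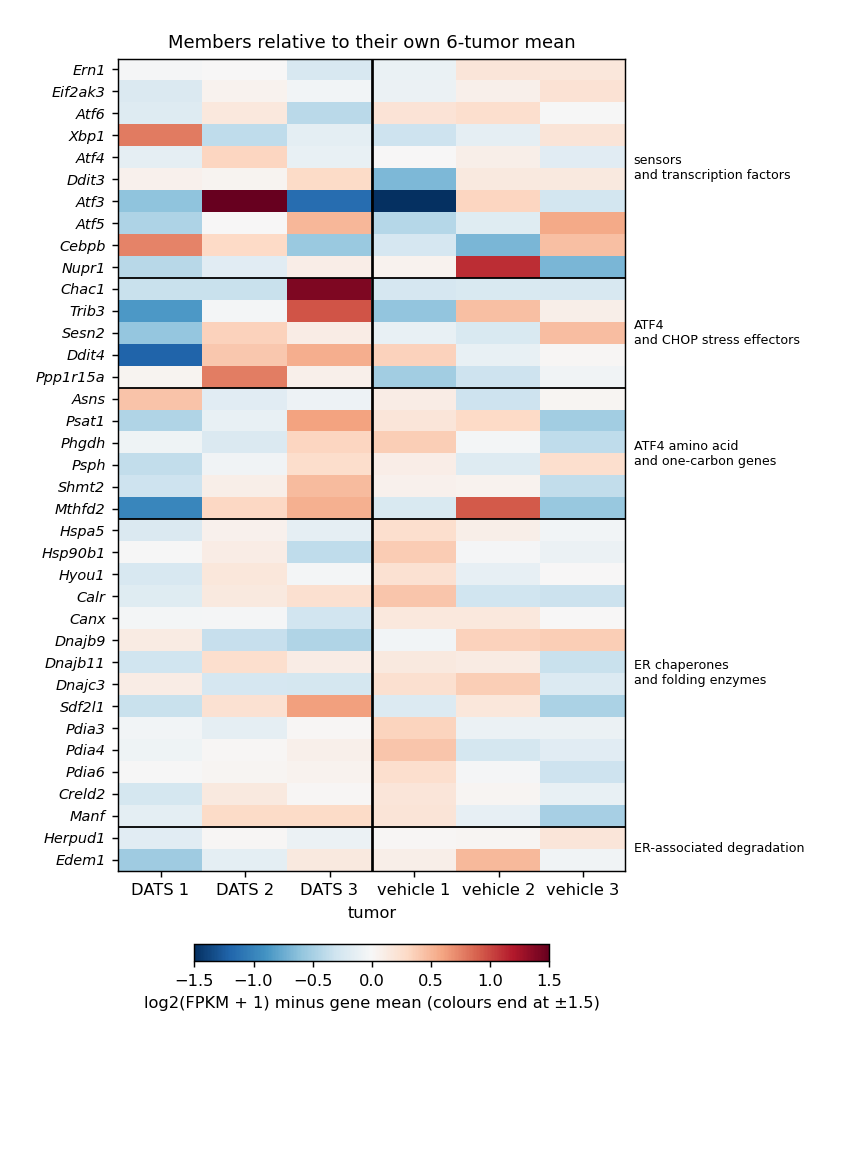
Log2(FPKM + 1) of each member minus its mean over the 6 tumors (rows, members by role; columns, tumors; red above and blue below the mean, colors ending at 1.5 to either side). DATS tumor 3 is red for the stress effectors and most amino acid genes, vehicle tumor 1 is red for most chaperones, and Atf3 stands out in DATS tumor 2.

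The effectors varied most within groups. The median within-group SD of log2 values was 0.26 for the chaperones and 0.71 for the effectors, with 0.41 for sensors and factors and 0.33 for amino acid genes and 0.20 for the 2 degradation genes, beside 0.29 for all genes tested. Of the 14 chaperones, 11 lay under the median gene in this SD. In mean FPKM over the 6 tumors, a scale per length, Calr was first with 644, followed by Pdia3 with 478, Hspa5 with 332, Pdia6 with 258, Xbp1 with 256, Hsp90b1 with 232 and Atf4 with 227. The steps from Calr to Pdia3, Pdia3 to Hspa5 and Hspa5 to Pdia6 held in 6 of 6 tumors. Pdia6 exceeded Xbp1 in 4 of 6 tumors, Xbp1 exceeded Hsp90b1 in 3 and Hsp90b1 exceeded Atf4 in 3, so these neighbors could not be ordered. At the low end, Nupr1 averaged 3.20, Chac1 2.10 and Trib3 1.998 FPKM, and Chac1 exceeded Trib3 in 3 of 6 tumors.

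Of 127 further genes of the pathway in 7 lists, 126 were matched and 122 tested, of which 56 were higher in DATS tumors, 66 lower and 0 called. Their median log2 difference was -0.01, and 7 of them, or 5.74%, had an unadjusted limma p under 0.05, against 5.85% of all genes. Among the eIF2 kinases and subunits of eIF2 and its exchange factor eIF2B, 4 of 12 were higher and 8 lower. Eif2b4, a regulatory subunit of eIF2B, had 36.9, 33.4 and 36.8 FPKM in DATS tumors, against 26.2, 23.2 and 27.7 FPKM in vehicle tumors, a log2 difference of 0.46 with an unadjusted p of 0.0116. In the further ATF4 list of amino acid transport and synthesis, 9 of 21 were higher and 12 lower. Eif4ebp1, an inhibitor of cap-dependent translation that ATF4 induces, had 85.9, 66.0 and 89.0 FPKM in DATS tumors, against 63.9, 56.2 and 41.3 FPKM in vehicle tumors, a log2 difference of 0.58. Vldlr, a lipoprotein receptor induced by the PERK branch, had 5.34, 9.43 and 6.23 FPKM in DATS tumors, against 11.1, 19.3 and 10.7 FPKM in vehicle tumors, a log2 difference of -0.86. These ATF4 targets thus lay on opposite sides, each with separate groups, and neither was called. The groups did not overlap for 11.5% of the 122 further genes, near the 12.2% of all genes tested.

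The further ER genes also lay on both sides within each list. In oxidative folding and the ER lumen 11 of 27 were higher and 16 lower. Fkbp2, a prolyl isomerase of the ER, had 70.6, 148 and 135 FPKM in DATS tumors, against 69.8, 50.2 and 43.3 FPKM in vehicle tumors, a log2 difference of 1.06. Dnajc10, a co-chaperone and disulfide reductase, had 23.4, 29.3 and 28.8 FPKM in DATS tumors, against 69.2, 35.7 and 42.4 FPKM in vehicle tumors, a log2 difference of -0.78. For Fkbp2 the groups were separated by less than 1 FPKM, and for Dnajc10 vehicle tumor 1 was far above the rest. In the degradation list 6 of 16 were higher and 10 lower. Os9, a lectin of ER-associated degradation, had 80.0, 92.0 and 78.0 FPKM in DATS tumors, against 60.1, 59.5 and 60.2 FPKM in vehicle tumors, a log2 difference of 0.46. It had the lowest unadjusted limma p of the pathway, 0.00941, with an adjusted p of 0.819 (Benjamini-Hochberg). In the translocon and signal peptidase 9 of 16 were higher and 7 lower, and Ssr1, a subunit of the translocon-associated complex, had 42.2, 43.6 and 44.7 FPKM in DATS tumors, against 57.4, 57.0 and 49.5 FPKM in vehicle tumors.

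In the other 2 lists 0 genes had an unadjusted p under 0.05. The processing genes and ER membrane factors, which include the ligase and proteases that act on Xbp1 and ATF6, had 5 higher and 5 lower of 10. Their log2 differences ran from -0.17 for Mbtps2, a protease that cuts ATF6, to 0.28 for Rtcb, the ligase of spliced Xbp1. The cytosolic aminoacyl-tRNA synthetases, many of them ATF4 targets, had 12 higher and 8 lower of 20, from -0.23 for Iars to 0.21 for Hars.

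**Figure D5:**
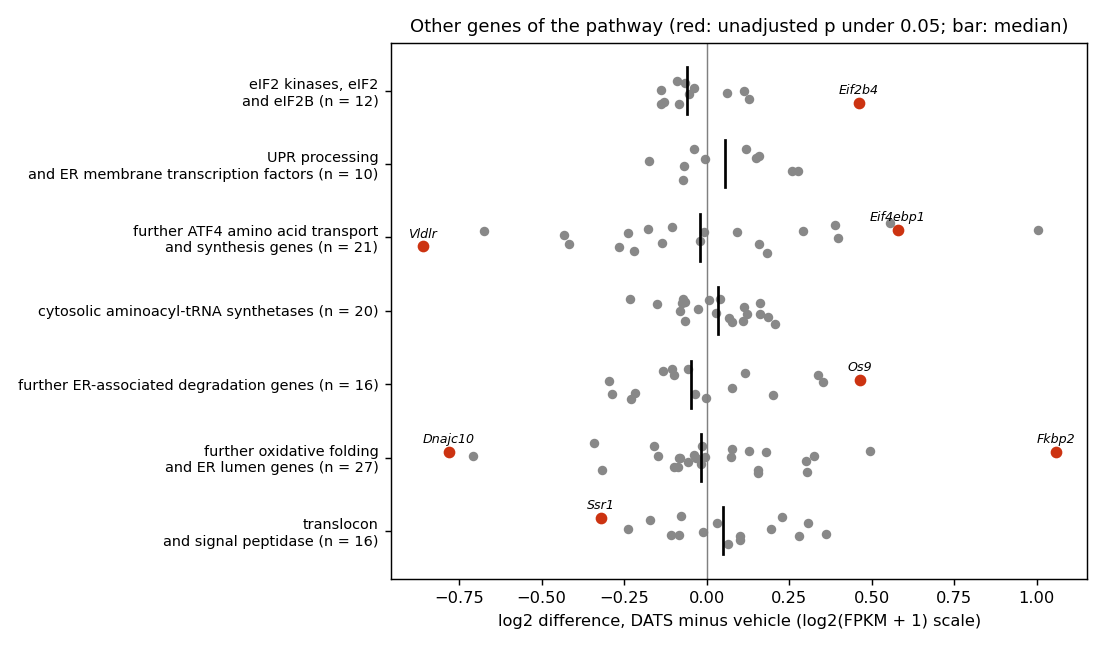
Log2 difference (DATS minus vehicle in log2(FPKM + 1), x axis) of 122 further genes of the pathway in 7 lists; points are genes, black bars list medians, and red points have an unadjusted limma p under 0.05. The list medians lie between -0.06 and 0.06, and the 7 red points lie on both sides of 0.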

How the data were processed

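The deposited table gave 1 FPKM value per gene and tumor with rat Ensembl identifiers and symbols (per the file headers). For the aligner, counter, genome build, annotation and strand handling, the status is: not given in the sources used here. Reads shared with near-identical copies or overlapping antisense genes could not be separated. Members were matched by symbol (37 genes, 38 table entries). Members and gene lists were chosen with earlier results of these data known. The deposited FPKM values step by the worth of a single read, which gave whole reads (tolerance 1e-06) for 99.98% of 20891 genes above 0. For 758 genes a common divisor was put back, and 5 were not recovered. This depth limits only counting precision.

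The 13631 genes averaging at least 1 FPKM were tested on log2(FPKM + 1) with limma 3.58.1 in R 4.3.3 (lmFit, eBayes with intensity trend, two-sided), group as the only term, Benjamini-Hochberg over all, called at an adjusted p under 0.05. The scale understates the change of low genes. Groups came from the treatment labels. Single members with separate groups also had an exact permutation test (scipy 1.17.1), whose p was fixed at 0.1 by that separation. Named were all members, further pathway genes at an unadjusted p under 0.05 and the extremes of lists without one. Of 260 list symbols, 7 were matched through older names in RefSeq's gene table (GRCr8), and Sec61g, Pecam1, Myh4 and Ier2 were not matched. Promoter sequences are RefSeq's, and 1 motif match is not reported here. Alternatives were a pseudocount of 0.1, no filter, equal totals, quantile normalization, limma-voom on recovered reads, a replicate block and leaving out each tumor. Fits and read recovery were tested on simulated data. Tables and plots used matplotlib 3.10.9 and pandas 2.3.3 on Python 3.11.15 with numpy 2.4.6.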

Additional observations from a re-analysis of the deposited data

How the results depend on the processing

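limma called 0 genes under every alternative run, members included; the genes at an unadjusted p under 0.05 ranged from 428 without DATS tumor 2 to 1221 without DATS tumor 1, against 797 with all tumors. The sign of the log2 difference held under every alternative for 14 members and changed under at least 1 for 23. The sign held for Atf6, Canx, Cebpb, Dnajb9, Dnajc3, Edem1, Eif2ak3, Ern1, Herpud1, Hsp90b1, Hspa5, Manf, Ppp1r15a and Sdf2l1. Every DATS tumor had a higher FPKM total than any vehicle tumor, so equal totals lower DATS values relative to vehicle values across genes. Scaling to equal FPKM totals moved the median of all genes from -0.0048 to -0.16, the chaperone median to -0.24 and the degradation median to -0.42. Under it the log2 difference became -0.014 for Xbp1, -0.13 for Atf4, -0.15 for Atf5, -0.066 for Trib3, -0.053 for Asns, -0.13 for Psat1, -0.14 for Phgdh, -0.044 for Calr, -0.14 for Dnajb11, -0.16 for Pdia4 and -0.13 for Pdia6. Canx, Dnajb9 and Dnajc3 had an unadjusted p under 0.05 there. Quantile normalization gave -0.017 for Xbp1, -0.10 for Atf4, -0.12 for Atf5, -0.17 for Calr, -0.046 for Dnajb11, -0.16 for Pdia4 and -0.15 for Pdia6, with Hspa5 and Canx at an unadjusted p under 0.05. Trib3 was -0.051 with a pseudocount of 0.1 and -0.034 in limma-voom on the recovered reads. Leaving out each tumor in turn gave -0.18 to 0.40 for Xbp1, -0.096 to 0.13 for Atf4, -0.018 to 0.39 for Ddit3, -0.35 to 1.87 for Atf3, -0.21 to 0.32 for Atf5, -0.74 to 0.15 for Nupr1, -0.088 to 0.78 for Chac1 and -0.43 to 0.47 for Trib3. It gave -0.28 to 0.19 for Sesn2, -0.49 to 0.39 for Ddit4, -0.068 to 0.23 for Asns, -0.27 to 0.26 for Psat1, -0.16 to 0.22 for Phgdh, -0.26 to 0.056 for Psph, -0.023 to 0.37 for Shmt2 and -0.38 to 0.39 for Mthfd2. It gave -0.17 to 0.033 for Hyou1, -0.12 to 0.20 for Dnajb11, -0.18 to 0.034 for Pdia3, -0.11 to 0.23 for Pdia4, -0.090 to 0.19 for Pdia6 and -0.16 to 0.050 for Creld2. The unadjusted p of Ppp1r15a lay between 0.0423 and 0.152 over the alternatives. The labels state no pairing by replicate number. Deviations of same-numbered tumors correlated at 0.1525, -0.02289 and -0.1157, which cannot settle whether the tumors were paired. With a replicate block 594 genes, and 0 members, had an unadjusted p under 0.05. Apart from the common shift under equal totals, the causes of these shifts were not tested, beyond the tumors named. With 3 tumors per group, no member could be placed in either direction at the threshold used. The limma confidence interval included 0 for every member but Ppp1r15a, which was not called. Among the members that changed sign, Atf3 had a high spread, and Trib3, Nupr1 and Chac1 had few reads. The sign changed only without DATS tumor 2 for Atf3, without vehicle tumor 2 for Nupr1 and without DATS tumor 3 for Chac1. Chac1 had 137 reads in DATS tumor 3, against 25 to 36 in the other tumors. Trib3 changed sign under several alternatives.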
